A study of Mus musculus with 47 samples.

Results

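The genes described here encode the nuclear transport receptors and nucleoporins, the machinery that moves proteins and RNA between nucleus and cytoplasm. Members were all genes whose symbol begins with Xpo, Ipo, Kpna, Kpnb, Tnpo, Nup or Ranbp followed by a number, which gave 45 of the 17097 genes measured. Each gene was represented by its probe set with the highest mean over 47 arrays. Of the 45 members, 39 passed the filter on low values (a mean of at least 5.80 on the log2 scale) and entered the 10258 genes tested. The 6 below it were Ranbp3l (4.21), Ranbp6 (4.92), Nup155 (4.99), Nup43 (5.33), Ranbp2 (5.70) and Ipo11 (5.79), and the nearest above it were Nup160 (5.84), Tnpo2 (6.01) and Nup37 (6.06).

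RNA came from muscle stem cells (satellite cells) of female C57B6/J wild-type mice. Feeding with a control or a high-fat diet started at 8 weeks of age and lasted 7 weeks, and mice were 15 weeks old at collection. Cells were collected at zeitgeber times (ZT) 0, 4, 8, 12, 16 and 20, where ZT0 is by convention lights on. There were 12 groups of diet and time with 4 mice each (3 at high-fat ZT16). The labels number biological replicates, and each array was taken as 1 mouse (24 control, 23 high-fat). All mice of a time point were collected on 1 day, so time of day and collection day cannot be told apart within a diet, whereas diets were compared within days.

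Cargo with a nuclear localisation signal is bound by importin alpha adaptors, which are carried by importin beta, or directly by other receptors of the importin beta family. Exportins carry cargo outwards together with the small GTPase Ran in its GTP-bound form. Both directions pass the nuclear pore, a ring-shaped assembly built of nucleoporins that form a scaffold, a central channel, cytoplasmic filaments and a nuclear basket. In satellite cells, which rest until muscle is injured, signalling proteins, transcription factors and clock proteins all depend on this traffic.

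The values are log2 expression values from arrays, whose number limits the precision. An array correlated with the others of its group at a mean of 0.969 to 0.987, and the median SD within groups was 0.19 (log2) over all genes tested and over the members. All 11 satellite cell markers measured passed the filter (Pax7 at a mean of 10.92). Of markers of other cells, Ptprc (3.85), Itgam (3.99), Pdgfra (4.37) and Adipoq (4.50) lay below it, while Rgs5 (10.07), Acta2 (10.93), Myh11 (10.64), Col3a1 (11.31), Dcn (10.21) and Mbp (9.22) lay well above it. The immune markers Cd68 (8.63) and Cd79a (7.54), the erythroid Hba-a1 (7.83) and the adipocyte marker Retn (6.49) also lay above it. Of endothelial markers, Tek (9.19), Cdh5 (6.92) and Pecam1 (6.72) lay above it and Kdr (5.19) and Cldn5 (4.93) below. In RNA from bulk cells, fewer cells of a type and less RNA per cell cannot be told apart. Differences below are high-fat minus control on the log2 scale with their standard errors, tested with limma on all 10258 genes with Benjamini-Hochberg adjustment. A member is said to have passed at an adjusted p under 0.05.

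Nearly all diet differences in the transport machinery that passed at a time of day were decreases on the high-fat diet. Over the 6 times there were 15 passing differences in 14 members (35.9% of 39, against 18.8% of all genes with at least 1 passing time). Of the 15, 14 were lower on the high-fat diet (93.3%, against 55.4% of the 2112 passing differences over all genes). As members, 13 were lower at 1 time or more (33.3%, against 10.7%) and 1 was higher (2.56%, against 8.6%). The exception was the import receptor Tnpo1 at ZT16. Differences of Kpna2 and Kpna6 at ZT0, Xpo1 at ZT8, and Kpnb1 and Tnpo1 at ZT16 passed whichever mouse was left out. The rest of the 15 were each lost without some 1 mouse. Averaged over the day, 4 of 39 members passed (10.3%, against 11.5% of all genes tested). The adaptor Kpna2, the microRNA exportin Xpo5 and the basket nucleoporin Nup50 were lower (6.8% of all genes), and Tnpo1 was higher (4.7% of all genes). The median average difference was -0.06 over the 39 members and -0.01 over all genes, with 11 members and 44.9% of all genes above 0. The diet difference varied with time of day (an F test of the diet by time interaction) in 10 members, or 25.6%, against 12.4% of all genes. Of those 10, 8 had no passing average difference. Of the 14 members that passed at a time, 9 also passed the interaction, whereas Ipo5, Ipo9, Kpna2, Kpna3 and Xpo5 did not, so for these 5 passing at a time does not show that the times differed. Without the ZT16 mice, 4 members still passed the interaction, namely Kpna6, Nup62, Nup160 and Xpo1. Over all genes, 271 of 10258 passed it then, against 1276 with all mice. Counting the average, the 6 times, the interaction and the difference in rhythm as 9 diet tests, 15 members passed 1 or more (38.5%, against 26.8% of all genes).

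The members were not called at one common time. At ZT0, 3 members passed (7.69%, against 3.56% of all genes), namely Ipo9, Kpna2 and Kpna6, and all were lower (2.23% of all genes were lower and 1.33% higher). At ZT4 Nup50 passed and was lower (0.312% of all genes, 0.107% lower and 0.205% higher). At ZT8 Xpo1, Nup160 and Ranbp9 passed and were lower (1.78% of all genes, 1.02% lower and 0.76% higher). At ZT12 Nup153 passed and was lower (0.858% of all genes, 0.39% lower and 0.468% higher). At ZT16, the time with the most passing genes, 7 members passed (17.9%, against 13.3%), of which 6 were lower (7.13% of all genes) and 1 higher (6.13%). At ZT20 limma called no member, with 6 at an unadjusted p under 0.05, and called 0.819% of all genes (0.517% lower and 0.302% higher). A further 18 members passed in no test of diet or rhythm.

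Promoter sequences are shown for 4 members on which the diet results turn, chosen after their values were seen. They are the exportin Xpo1, the carrier Kpnb1 and the adaptor Kpna2, each lower at ZT16, and Tnpo1, which was higher there. Each run is the 250 bases before the annotated RefSeq start (mouse build GRCm38.p6), at chr11:23255791-23256040 on the plus strand for Xpo1 and on the minus strand at chr11:97187893-97188142 for Kpnb1, chr11:106999526-106999775 for Kpna2 and chr13:98926385-98926634 for Tnpo1 (the outermost of 2 starts). Capitals mark matches on either strand to 7 short motifs listed after the sequences.
Xpo1: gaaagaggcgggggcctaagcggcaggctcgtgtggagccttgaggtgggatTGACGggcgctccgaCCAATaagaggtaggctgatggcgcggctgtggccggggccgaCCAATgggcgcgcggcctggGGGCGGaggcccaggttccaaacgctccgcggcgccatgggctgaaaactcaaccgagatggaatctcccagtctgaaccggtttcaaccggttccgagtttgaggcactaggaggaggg
Kpnb1: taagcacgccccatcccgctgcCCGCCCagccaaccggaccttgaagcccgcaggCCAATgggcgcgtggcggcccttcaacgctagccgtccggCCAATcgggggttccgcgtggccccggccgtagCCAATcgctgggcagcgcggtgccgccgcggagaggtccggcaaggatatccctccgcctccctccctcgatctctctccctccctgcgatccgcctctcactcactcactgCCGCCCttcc
Kpna2: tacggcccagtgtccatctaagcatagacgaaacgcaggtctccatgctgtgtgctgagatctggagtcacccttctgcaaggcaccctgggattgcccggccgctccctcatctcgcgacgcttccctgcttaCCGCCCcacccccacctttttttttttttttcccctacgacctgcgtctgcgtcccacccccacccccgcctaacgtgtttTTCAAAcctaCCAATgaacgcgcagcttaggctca
Tnpo1: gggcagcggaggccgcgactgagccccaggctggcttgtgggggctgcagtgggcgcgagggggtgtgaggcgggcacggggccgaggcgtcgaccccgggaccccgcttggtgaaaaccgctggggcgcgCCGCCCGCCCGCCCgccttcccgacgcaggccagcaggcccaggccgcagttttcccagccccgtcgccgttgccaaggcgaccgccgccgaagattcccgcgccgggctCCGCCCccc

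The motifs searched were the E-box CACGTG bound by clock factors, the D-box TTANNTAA, the nuclear receptor half-site AGGTCA, the CRE half-site TGACG, the CCAAT box CCAAT, the GC box GGGCGG and the CHR element TTTGAA. The Xpo1 window held 1 CRE half-site, 2 CCAAT boxes and 1 GC box. The Kpnb1 window held 3 CCAAT boxes and 2 GC boxes, and that of Kpna2 a GC box with a CHR element and a CCAAT box close to the start. The Tnpo1 window held 4 GC boxes, 3 of which overlap, and no CCAAT box. None of these 4 windows held the letters of the E-box, D-box or AGGTCA. Among 45 promoters of the 38 members found in the RefSeq table, 27 held a GC box (60%, against 32.7% of 32851 promoters of the same length), 20 a CCAAT box (44.4%, against 33.8%) and 14 a CRE half-site (31.1%, against 17.8%). A CHR element was in 9 (20%, against 16%), an E-box in 6 (13.3%, against 6.02%), and a D-box and AGGTCA in 1 each (2.22%, against 5.43% and 14%). Some members have more than 1 start, whose windows can overlap, and a match is a description of letters only.

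Among the 5 exportins, Xpo1 showed the largest diet difference. Xpo1 (CRM1) exports proteins with a leucine-rich export signal. At ZT8 the control mice had log2 values of 7.22, 7.74, 7.38 and 7.43 and the high-fat mice 6.69, 6.64, 6.31 and 6.10. Every high-fat mouse lay below every control mouse. The difference was -1.01 ± 0.18 (adjusted p = 0.00282), or 0.497 of the control level. At ZT0 the direction was opposite in sign, at 0.24 ± 0.18 (adjusted p = 0.527), with 6.81, 7.15, 7.31 and 6.83 in control and 7.15, 6.99, 7.58 and 7.36 in high-fat mice, which overlapped. The interaction passed (adjusted p = 0.00146), and so did the difference in 24 h rhythm (adjusted p = 0.00516).

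This course of Xpo1 belonged to 1 of its probe sets. The second probe set above the filter had a mean of 6.15, and at ZT8 its means were 6.26 ± 0.15 (SD, n = 4) in control and 5.96 ± 0.27 (SD, n = 4) in high-fat mice. Its difference there was -0.30 (adjusted p = 0.3), its interaction did not pass (adjusted p = 0.482), and its rhythm amplitudes were 0.01 under control feeding (adjusted p = 0.993) and 0.06 under high-fat feeding (adjusted p = 0.787). With all probe sets of a gene averaged, the interaction (adjusted p = 0.111) and the rhythm difference (0.19, adjusted p = 0.119) of Xpo1 no longer passed. Which transcripts each probe set reads was not analysed here.

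Xpo5 carries microRNA precursors out of the nucleus. Its average difference was -0.23 ± 0.07 (adjusted p = 0.0197). At ZT16 control mice had 7.05, 6.58, 6.83 and 7.03 and high-fat mice 6.73, 6.37 and 5.96, a difference of -0.51 ± 0.17 (adjusted p = 0.0415). The groups overlapped, since 1 high-fat mouse lay above the lowest control mouse. The ZT16 call was lost under 5 of 7 alternatives (adjusted p = 0.0511 to 0.0995) and without any 1 of 5 mice, and without high-fat ZT16 replicate 3 the difference was -0.32 (adjusted p = 0.33). The average was -0.17 without the ZT16 mice (adjusted p = 0.141) and -0.07 with all probe sets averaged (adjusted p = 0.271). A second probe set of Xpo5 gave 0.02 at ZT16 (adjusted p = 0.959) and 0.09 on average (adjusted p = 0.33).

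Xpo6, the exportin of actin with profilin, passed the interaction only (adjusted p = 0.0423). That call was lost without any 1 of 17 mice (adjusted p up to 0.0905), and without the ZT16 mice the adjusted p was 0.125. At ZT8 control mice had 9.12, 9.06, 8.96 and 8.81 and high-fat mice 9.26, 9.14, 9.17 and 9.35, so that all high-fat mice were above (0.24 ± 0.12, adjusted p = 0.291). At ZT12 the sign was opposite, with 9.30, 9.01, 9.27 and 9.27 in control and 8.72, 9.18, 8.54 and 8.78 in high-fat mice (-0.41 ± 0.12, adjusted p = 0.0885). Its single-time differences did not pass. Xpo4 and Xpo7 passed in no diet test. Another probe set of Xpo4, however, with a mean of 7.68 against 7.97 for the one chosen, fell by 0.77 at ZT16 (adjusted p = 0.000326) and passed the interaction (adjusted p = 0.00819), where the chosen one was at -0.14 (adjusted p = 0.614).

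Importin beta itself, Kpnb1, the carrier of importin alpha with its cargo, differed between diets at ZT16. Control mice had 10.74, 10.72, 10.60 and 10.58 and high-fat mice 10.33, 10.40 and 10.23. The groups did not overlap, and the difference was -0.34 ± 0.07 (adjusted p = 0.00171), or 0.79 of the control level. At the other 5 times its differences lay between -0.05 and 0.12, and its interaction passed (adjusted p = 0.0156). The interaction did not pass without the ZT16 mice (adjusted p = 0.58), with all probe sets averaged (adjusted p = 0.267) or without high-fat ZT16 replicate 3 (adjusted p = 0.0695). A second probe set fell by 0.39 at ZT16 (adjusted p = 0.000528), and 2 others were at -0.28 (adjusted p = 0.0519) and -0.34 (adjusted p = 0.596). The one at -0.28 was also lower on average, by -0.18 (adjusted p = 0.00161), where the chosen probe set was at -0.03 (adjusted p = 0.567).

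Transportin 1 (Tnpo1), which imports RNA-binding proteins such as hnRNPs, was the member that rose. At ZT16 control mice had 9.99, 9.97, 10.00 and 9.82 and high-fat mice 10.45, 10.50 and 10.38. All high-fat mice were above all control mice, and the difference was 0.50 ± 0.09 (adjusted p = 0.000216), or 1.41 times the control level. Of its other probe sets above the filter, 1 rose by 0.45 (adjusted p = 0.0216) and 1 was at 0.18 (adjusted p = 0.384). The average difference of Tnpo1 was 0.13 ± 0.03 (adjusted p = 0.0131), and without the ZT16 mice it was 0.05 (adjusted p = 0.476). The interaction passed (adjusted p = 0.00792) and without the ZT16 mice did not (adjusted p = 0.27).

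Ipo5 and Ipo9, receptors for ribosomal proteins and histones among others, were each lower at 1 time. For Ipo5 at ZT16, control mice had 10.47, 10.27, 10.50 and 10.34 and high-fat mice 10.15, 10.23 and 9.90, without overlap (-0.30 ± 0.11, adjusted p = 0.0483). Its other probe sets above the filter gave -0.43 (adjusted p = 0.0109) and -0.40 (adjusted p = 0.171). The call of Ipo5 lay close to the threshold and was lost without any 1 of 20 mice. For Ipo9 at ZT0, control mice had 8.51, 8.92, 8.63 and 8.6 and high-fat mice 7.91, 7.96, 8.59 and 8.12, and 1 high-fat mouse reached the control range (-0.52 ± 0.13, adjusted p = 0.0231). That call was lost without any 1 of 4 mice (adjusted p up to 0.0906). Its other probe sets gave -0.20 and 0.03 there (adjusted p = 0.357 and 0.953), and with all averaged the difference was -0.23 (adjusted p = 0.217).

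Importin alphas, the adaptors that recognise the classical nuclear localisation signal, held 4 members, all tested. All 4 lay below 0 at ZT0 and at ZT16, where 43% and 46.6% of all genes lay above 0. Kpna7 was close to 0 at both (-0.08 and -0.12), and at ZT8 1 of the 4 lay below 0. Kpna2 had the largest average decrease of all 39 members, at -0.32 ± 0.06 (adjusted p = 0.00017). It was negative at all 6 times. At ZT0 control mice had 9.47, 9.0, 9.20 and 9.30 and high-fat mice 8.65, 8.40, 8.64 and 8.6, without overlap (-0.67 ± 0.13, adjusted p = 0.00445). At ZT16 control mice had 8.96, 8.50, 8.80 and 8.36 and high-fat mice 8.35, 8.06 and 8.14, again all below, the nearest by 0.01 (-0.47 ± 0.14, adjusted p = 0.0244). The interaction of Kpna2 did not pass (adjusted p = 0.158). Its average and ZT0 calls held in all 47 fits that left out 1 mouse, whereas its ZT16 call was lost without any 1 of 4 mice (adjusted p up to 0.103).

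Kpna6 passed at ZT0 and at no other time. Control mice had 8.29, 8.49, 8.04 and 8.15 there and high-fat mice 7.53, 7.54, 7.54 and 7.39. The groups did not overlap (-0.74 ± 0.12, adjusted p = 0.000371), and the high-fat level was 0.598 of the control level. At ZT4 the difference was 0.27 ± 0.12 (adjusted p = 0.307). Its interaction had the smallest adjusted p of the members (0.000771), and its 24 h rhythm also differed between diets (adjusted p = 0.0336; at most 0.0555 without control ZT8 replicate 1 or high-fat ZT16 replicate 3, 0.0767 without the ZT16 mice and 0.127 with all probe sets averaged). Kpna3 was lower at ZT16, with 7.39, 7.80, 7.61 and 7.85 in control and 7.22, 7.00 and 7.13 in high-fat mice, which did not overlap (-0.55 ± 0.18, adjusted p = 0.0392). The call was lost without any 1 of 6 of these 7 mice (adjusted p up to 0.124). A second probe set of Kpna3 gave -0.46 there (adjusted p = 0.156) and passed the interaction (adjusted p = 0.00862), which the chosen one did not. Kpna7 passed in no test.

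**Figure D1:**
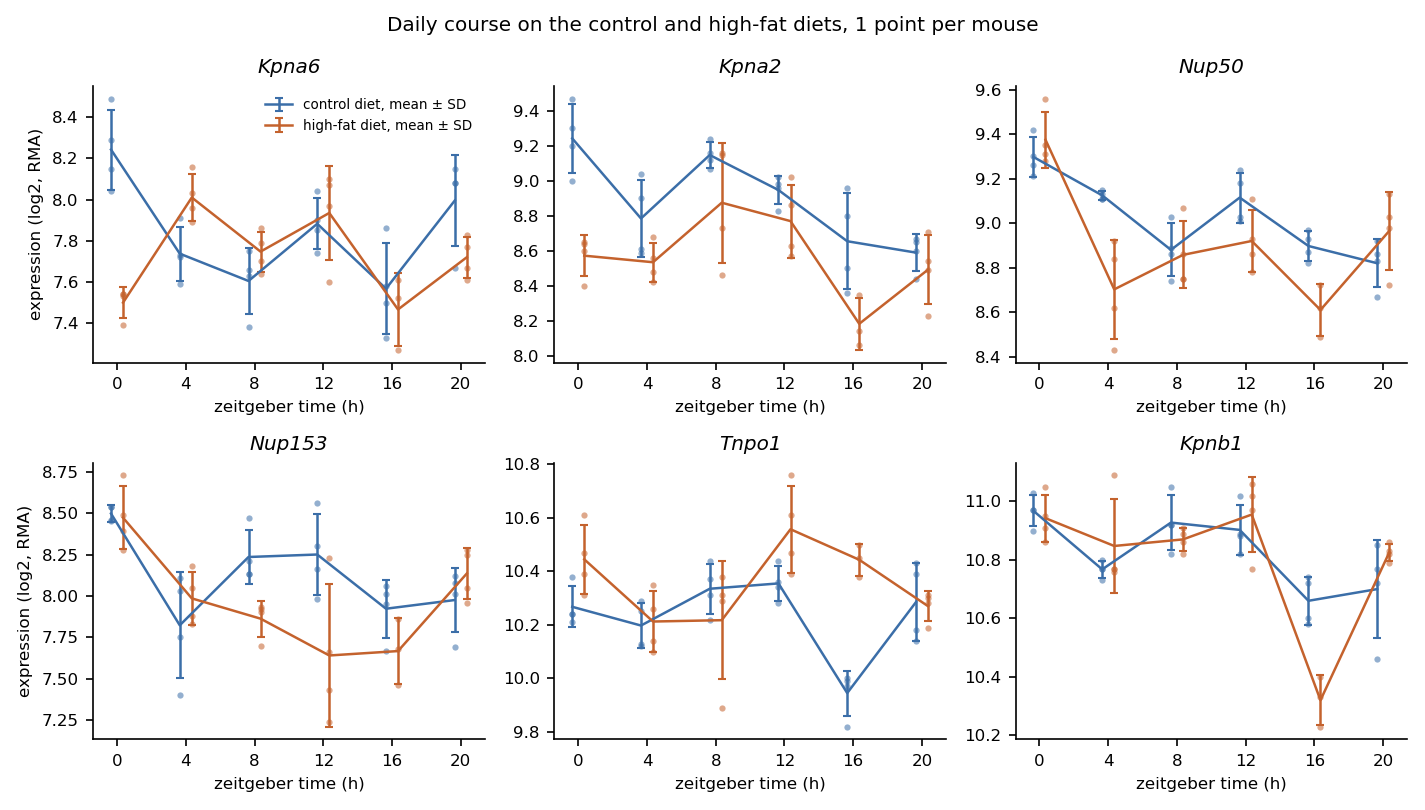
Expression (log2) of Kpna6, Kpna2, Nup50, Nup153, Tnpo1 and Kpnb1 against zeitgeber time in control (blue) and high-fat (orange) mice; points are mice, lines and bars are group means ± SD. Kpna6 separates at ZT0, Kpna2 at ZT0 and ZT16, Nup50 at ZT4 and ZT16, Nup153 at ZT8, and Tnpo1 and Kpnb1 at ZT16 in opposite directions.

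The genes grouped by the name Ranbp are of mixed function. Ranbp1 helps Ran to hydrolyse GTP, whereas Ranbp9 is a scaffold of a ubiquitin ligase complex. Of 4 tested, 1 passed a diet test (26.8% of all genes passed at least 1 of the 9). For Ranbp9 at ZT8, control mice had 9.81, 9.49, 9.62 and 9.77 and high-fat mice 9.19, 9.17, 9.47 and 9.45. All high-fat mice lay below, the nearest by 0.02 (-0.35 ± 0.09, adjusted p = 0.039). That call was lost without any 1 of 5 mice (adjusted p up to 0.123). Its interaction passed (adjusted p = 0.037), and without the ZT16 mice did not (adjusted p = 0.364).

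Of the nucleoporins of the scaffold (the Y complex and the inner ring, 7 tested), 1 passed a diet test. Of all genes, 26.8% passed at least 1 of the 9. Nup160, of the Y complex that coats the pore membrane, had a mean close to the filter. At ZT8 control mice had 6.38, 6.74, 6.18 and 6.25 and high-fat mice 5.59, 4.93, 5.71 and 5.77, without overlap (-0.89 ± 0.23, adjusted p = 0.0335). That call was lost without any 1 of 4 mice (adjusted p up to 0.12), while the interaction held in all 47 such fits. At ZT4 and ZT20 its differences were 0.46 ± 0.23 and 0.41 ± 0.23 (adjusted p = 0.411 and 0.432), and the interaction passed (adjusted p = 0.0191). Of the inner ring, Nup205 was at 0.11 ± 0.09 on average (adjusted p = 0.488), with 0.54 ± 0.22 at ZT0 (adjusted p = 0.171). On the cytoplasmic face, Nup88 was at -0.12 ± 0.06 on average (adjusted p = 0.196) and Nup214 at 0.06 ± 0.06 (adjusted p = 0.512). For Nup214 at ZT12, control mice had 7.02, 6.9, 7.14 and 7.26 and high-fat mice 7.34, 7.49, 7.48 and 7.47, all above (0.37 ± 0.14, adjusted p = 0.19). At ZT20 Nup214 was at 0.30 ± 0.14 (adjusted p = 0.295), and its interaction had an adjusted p of 0.082. No member of the inner ring or the cytoplasmic face passed a diet test in limma. At an unadjusted p under 0.05 were 1 of 3 inner ring members at ZT0 (Nup205) and 1 of 2 cytoplasmic members at ZT12, at ZT20 and in the interaction (Nup214), and none on average.

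In the central channel, Nup62, whose phenylalanine-glycine repeats line the passage, was lower at ZT16. Control mice had 10.39, 10.39, 10.66 and 10.46 and high-fat mice 9.98, 10.24 and 10.27, without overlap (-0.31 ± 0.09, adjusted p = 0.0172). The call was lost without control ZT16 replicate 3 or high-fat ZT16 replicate 1 (adjusted p up to 0.166). A second probe set fell by 0.33 (adjusted p = 0.0476), and with all probe sets averaged, those below the filter included, the difference was -0.01 (adjusted p = 0.946). At ZT20 the sign was opposite (0.26 ± 0.08, adjusted p = 0.118), and the interaction passed (adjusted p = 0.00748; 0.36 for the second probe set and 0.122 with all averaged). Nup98, also of the channel, passed in no test, but another probe set of it, with a mean of 8.69 against 10.68, rose by 0.42 at ZT16 (adjusted p = 0.0136) and by 0.22 on average (adjusted p = 0.00122). Nup98 and Nup214 are described after their values were seen.

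Both tested nucleoporins of the nuclear basket passed a diet test, as did 26.8% of all genes. Nup50 takes part in the release of imported cargo from importin alpha. At ZT4 control mice had 9.11, 9.13, 9.15 and 9.11 and high-fat mice 8.62, 8.84, 8.43 and 8.92, without overlap (-0.42 ± 0.10, adjusted p = 0.0318). That call was lost without any 1 of 6 of these mice (adjusted p up to 0.142) and with array weights (adjusted p = 0.0775). At ZT16 control mice had 8.93, 8.97, 8.87 and 8.82 and high-fat mice 8.62, 8.49 and 8.72, also without overlap but short of the threshold (-0.29 ± 0.10, adjusted p = 0.0577). Another probe set of Nup50 fell by 0.82 at ZT16 (adjusted p = 0.000105) and was at -0.05 at ZT4 (adjusted p = 0.93), where the remaining one was at 0 (adjusted p = 0.994). The average difference of -0.12 ± 0.04 (adjusted p = 0.0464) was lost without any 1 of 31 mice. The interaction passed (adjusted p = 0.0161) and without the ZT16 mice did not (adjusted p = 0.0581).

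Nup153 anchors the basket. At ZT12 control mice had 7.98, 8.56, 8.30 and 8.16 and high-fat mice 7.24, 7.66, 7.43 and 8.23, of which 1 lay within the control range (-0.61 ± 0.15, adjusted p = 0.0427). That call was lost without any 1 of 6 of these mice (adjusted p up to 0.188). At ZT8 control mice had 8.47, 8.21, 8.13 and 8.13 and high-fat mice 7.90, 7.70, 7.93 and 7.92, all below, with a difference that did not pass (-0.37 ± 0.15, adjusted p = 0.193). Its second probe set gave 0.19 at ZT12 (adjusted p = 0.557). The interaction was at an adjusted p of 0.0431 and was lost without any 1 of 21 mice.

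At ZT16 the members that passed and were lower on the high-fat diet were mostly import factors. They were the carrier Kpnb1, the adaptors Kpna2 and Kpna3, the receptor Ipo5, the exportin Xpo5 and the channel protein Nup62. The call of Xpo5 was lost without any 1 of 5 mice, and its second probe set was at 0.02. The other exportins did not pass there, with Xpo1 at 0.32, Xpo6 at 0.24, Xpo7 at 0.42 and Xpo4 at -0.14. The import receptor Tnpo1 was higher. Among the members, 6 had every high-fat mouse below every control mouse (15.4%, against 15.8% of all genes), namely Ipo5, Kpna2, Kpna3, Kpnb1, Nup50 and Nup62. A further 3 had every high-fat mouse above (7.69%, against 13.3%), namely Tnpo1, Nup98 and Xpo7. The share of members separated downward was thus close to the background at that time. At ZT0, 6 members were separated downward (15.4%, against 6.16%) and none upward (3.83% of all genes). At ZT8, 5 were separated downward (12.8%, against 5.87%) and Xpo6 upward (3.96% of all genes). At ZT4 Nup50 was separated downward (2.28% of all genes) and no member upward (3.1%), at ZT12 Nup210 downward (3.28%) and Nup214 upward (4.19%), and at ZT20 Nup210l and Xpo6 downward (4.04%) and no member upward (2.29%).

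Ran, which is no member, showed the same direction at ZT16. Control mice had 10.98, 10.91, 10.90 and 10.85 and high-fat mice 10.33, 10.54 and 10.31. No mice overlapped, and the difference was -0.52 ± 0.08 (adjusted p = 1.33e-05). On the other days its differences lay between -0.22 and 0.12.

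Marker lists differed between diets at several of these times. At ZT16, 4 of 9 lists did not overlap between diets. The satellite cell list mean was 9.96 (9.90 to 10.04 over mice) in control and 10.15 (10.10 to 10.24) in high-fat mice, with 3 of 11 markers higher and none lower. The fibro-adipogenic list was at 7.68 (7.53 to 7.84) and 8.06 (7.93 to 8.15), and the endothelial list at 6.43 (6.37 to 6.51) and 6.81 (6.75 to 6.87), though neither list had a passing marker. The myofibre list was at 5.95 (5.91 to 6.02) and 6.12 (6.05 to 6.17), with 1 of 5 tested markers higher. The Schwann cell list was at 7.29 (7.18 to 7.49) and 7.49 (7.35 to 7.58), which overlapped, with 1 of 3 markers higher. The pericyte and smooth muscle list was at 9.88 (9.20 to 10.55) and 9.29 (8.92 to 9.52). The immune list was at 5.44 in both, with Ptprc, Adgre1, Itgam and Cd3e below the filter. At ZT0 the immune list was at 5.56 (5.52 to 5.60) in control and 5.35 (5.27 to 5.48) in high-fat mice, with Cd68 lower, and the fibro-adipogenic list at 7.94 (7.71 to 8.17) and 8.35 (7.99 to 8.69). At ZT4, where Nup50 passed, the diets overlapped in all 9 lists. At ZT8, the time of the Xpo1, Nup160 and Ranbp9 differences, the Schwann cell list was at 7.54 (7.39 to 7.62) and 7.77 (7.64 to 7.87), without a passing marker, and the other 8 lists overlapped. At ZT12, the time of the Nup153 difference, 3 lists were higher without overlap. The Schwann cell list was at 7.50 (7.44 to 7.65) and 8.13 (7.84 to 8.49), with 2 of 3 markers higher. The fibro-adipogenic list was at 8.06 (7.89 to 8.20) and 8.55 (8.39 to 8.87), and the satellite cell list at 10.01 (9.95 to 10.04) and 10.19 (10.06 to 10.37). On average over the day, 4 of 11 satellite cell, 2 of 3 Schwann cell and 1 of 3 fibro-adipogenic markers passed and were higher, and 1 of 2 immune and 1 of 4 pericyte and smooth muscle markers were lower. As a sign of RNA quality, the 3 prime minus 5 prime difference of the Actb control probe sets was -0.37 in control and -0.42 in high-fat mice at ZT16, and that of Gapdh -0.07 and -0.16 at ZT0. The part of these shifts in the members' differences was not tested.

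The ZT16 number of passing members depended on single mice, as did that of all genes (1360 with all mice). The number of members was 2 without control ZT16 replicate 3 and 3 without high-fat replicate 3 (1078 and 598 of all genes). It was 4 without control replicate 1, control replicate 4, high-fat replicate 1 or high-fat replicate 2 (1246, 906, 845 and 1051 of all genes). Kpnb1 and Tnpo1 passed in all 47 fits that left out 1 mouse. At ZT8 the number was 1 without control replicate 3 or high-fat replicate 2 (58 and 78 of all genes, against 183 with all mice). At ZT4 the number of members was 0 without any 1 of the 4 control mice or without high-fat replicate 1 or 3. Over all genes these fits called 34, 10, 16, 39, 32 and 16, against 32 with all mice. At ZT12 the number of members was 0 without control replicate 2, 3 or 4 or high-fat replicate 1 or 3, and 2 without high-fat replicate 2. Over all genes these fits called 24, 40, 23, 28, 16 and 107, against 88 with all mice.

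**Figure D2:**
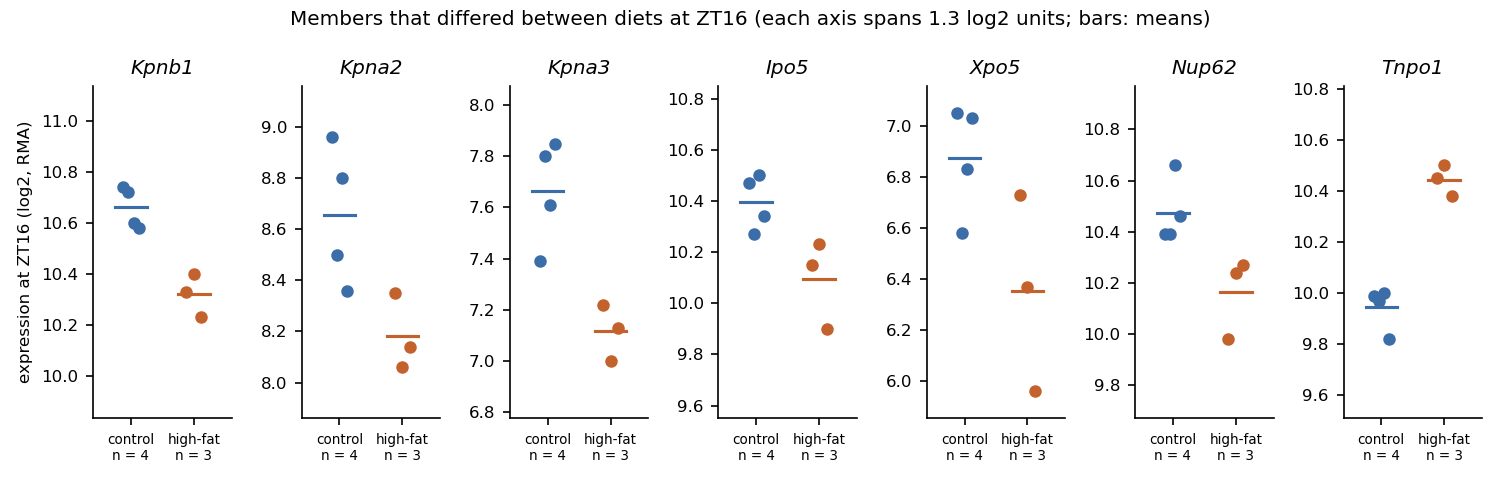
Expression (log2) at ZT16 of the 7 members that passed there, 1 point per mouse with horizontal bars at the group means, control (blue, 4 mice) and high-fat (orange, 3 mice); each axis spans the same log2 range. The high-fat mice lie below for Kpnb1, Kpna2, Kpna3, Ipo5 and Nup62 without overlap and for Xpo5 with overlap, and above for Tnpo1.

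Daily rhythms were assessed with a 24 h cosine within each diet, whose amplitude is the distance from mean to peak. On the control diet 4 of 39 members were rhythmic (10.3%, against 10.5% of all genes), and on the high-fat diet 9 (23.1%, against 16.9%). Nup210, Ranbp1 and Xpo1 passed on both diets. Nup160 passed on the control diet, and Ipo4, Ipo5, Ipo7, Ipo8, Nup153 and Xpo4 on the high-fat diet. The rhythm itself differed between diets in 2 members, Xpo1 and Kpna6 (5.13%, against 2.11%), so for the others passing on 1 diet does not show a difference.

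Nup210, a membrane-spanning nucleoporin known from muscle differentiation, was rhythmic on both diets. In control mice it peaked at 8.07 ± 0.772 h with an amplitude of 0.29 ± 0.06 (adjusted p = 0.00231), and in high-fat mice at 6.68 ± 0.689 h with 0.33 ± 0.06 (adjusted p = 0.000465). The difference in rhythm was 0.12 (adjusted p = 0.591). At ZT12 its control mice had 8.31, 8.11, 8.11 and 8.42 and its high-fat mice 7.80, 7.88, 7.72 and 7.96, all below (-0.40 ± 0.13, adjusted p = 0.133). Ranbp1 peaked at 6.97 ± 1.06 h in control mice (0.29 ± 0.08, adjusted p = 0.0376) and at 4.59 ± 1.01 h in high-fat mice (0.30 ± 0.08, adjusted p = 0.0258). Its control call was lost without any 1 of 9 mice and its high-fat call without any 1 of 3 (adjusted p up to 0.115 and 0.0808).

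On the high-fat diet the rhythmic import receptors peaked before ZT10. Ipo5 had an amplitude of 0.25 ± 0.05 at 4.41 ± 0.71 h (adjusted p = 0.001), and Ipo4 of 0.31 ± 0.07 at 4.95 ± 0.874 h (adjusted p = 0.00817). Second probe sets gave 0.44 at 4.38 h for Ipo5 (adjusted p = 0.000365) and 0.31 at 4.97 h for Ipo4 (adjusted p = 0.00813). Without the ZT16 mice, Ipo4 did not pass (adjusted p = 0.0817). Ipo7 (2.64 h), Ipo8 (9.89 h) and Xpo4 (6.16 h), named here after their values were seen, had amplitudes of 0.17, 0.18 and 0.22. Those calls were lost without any 1 of 10, 3 and 9 mice, and that of Xpo4 held under 4 of 10 alternatives. Nup153 peaked near ZT0, at 0.0494 ± 0.845 h, with an amplitude of 0.37 ± 0.08 (adjusted p = 0.00326). Its second probe set had 0.08 (adjusted p = 0.655).

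Of the rhythmic members, all 4 on the control diet and 7 of 9 on the high-fat diet peaked between 2 and 10 h, against 48.8% and 50.4% of all rhythmic genes. None peaked between 10 and 18 h, where 22.5% and 35.1% of all rhythmic genes did. With the collection day as a random block, 2 members on the control diet (Nup210 and Xpo1) and 3 on the high-fat diet (Ipo5, Nup153 and Nup210) still passed. Of all genes, 289 and 580 did, against 1081 and 1731 without the block.

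**Figure D3:**
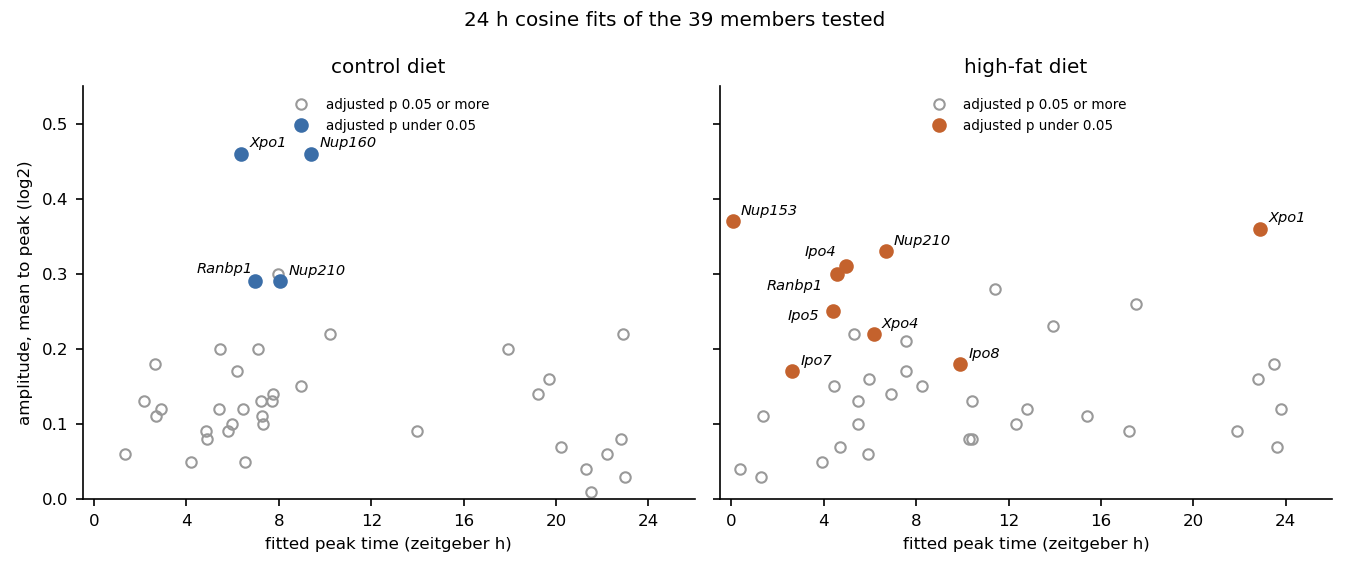
Amplitude (log2, mean to peak) against fitted peak time (h) of 24 h cosine fits for the 39 members on the control diet (left) and the high-fat diet (right); filled points passed and are named, open points did not. The 4 filled points on the left lie between 6 and 10 h, and on the right Nup153 and Xpo1 lie near ZT0 (0.0494 and 22.9 h) while the other 7 lie between 2 and 10 h.

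Genes that work with the members were taken from 4 lists of the same machinery, and their counts on average stand beside 6.8% lower and 4.7% higher over all genes. Of 11 tested genes of the Ran cycle and other receptors, 1 was higher on average (Rangrf, 0.18 ± 0.05, adjusted p = 0.0282) and 2 lower (Ran, -0.14 ± 0.03, adjusted p = 0.00169, and the mRNA export receptor Nxf1, -0.09 ± 0.03, adjusted p = 0.0194). Of 6 tested nucleoporins not named Nup, none passed on average in limma (2 at an unadjusted p under 0.05), and Sec13, of the Y complex, was lower at ZT16 (-0.39 ± 0.11, adjusted p = 0.016). Of 16 tested mRNA export genes, 4 were lower (6.8% of all genes) and 1 higher (4.7%) on average, and 4 were lower (7.13% of all genes) and none higher (6.13%) at ZT16. The adaptor Alyref was at -0.69 ± 0.16 there (adjusted p = 0.00417) and Thoc5, of the THO complex, at -0.66 ± 0.14 (adjusted p = 0.00189). Of 14 tested genes of the nuclear lamina and envelope, 4 were lower on average (6.8% of all genes) and none higher (4.7%). The lower ones included the lamin B receptor Lbr (-0.28 ± 0.06, adjusted p = 0.00328). At ZT16, 3 were lower (7.13% of all genes) and none higher (6.13%), among them Banf1, a chromatin-bridging protein (-0.65 ± 0.19, adjusted p = 0.0164), and Tor1aip2, an activator of torsins (-0.51 ± 0.07, adjusted p = 5.5e-06).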

How the data were processed

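Total RNA (25 ng per sample) was amplified over 17 cycles and 8 µg of cDNA was labelled with biotin, per the labels' protocols. The authors deposited 1 log2 value for each probe set and array, made with RMA per the submitters' processing notes; its version and settings were not given in the sources used here. RMA brings all arrays to one distribution, so a difference is measured against the whole of the array, and it is compressed near background.

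Of 45141 probe sets, 28898 carried 1 gene symbol, and those with several or none were not used for naming, so Ranbp3, found only with other symbols, was not analysed here. Genes with a mean under the 40th percentile were left out. Models were fitted to all 47 arrays in limma 3.58.1 under R 4.3.3, using lmFit and a trended eBayes, two-sided, with adjustment over 10258 genes. The 12 group means gave the diet differences, their mean over 6 times and the interaction F test of 5 coefficients. Cosine and sine terms gave the rhythms, with the time factor added for their difference. The fits were tested on simulated data. Labels number biological replicates, so each array was taken as 1 animal.

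The members, lists and tests were chosen with earlier results of these data known. Genes named are all members passing a diet test, the 6 largest passing amplitudes per diet, 1 member of each role group otherwise unnamed, and up to 3 genes of each related list. Alternatives covered normalization, filters, probe sets, variance model, array weights, blocks, time points and single mice; separate fits of every probe set were chosen after seeing the data.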

Additional observations from a re-analysis of the deposited data

Results flagged for a closer look

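Within groups of 4 mice, 11 of the 220 groups of named members examined (5.0%) held a mouse whose gap to the nearest other, over the range of the group, exceeded Dixon's critical value, which is set so that chance exceeds it in about 1 in 20 groups. The highest mice were at 7.36 for Kpna3 at control ZT8 (others 7.12 to 7.15), at 11.09 for Kpnb1 at high-fat ZT4 (10.76 to 10.77), at 10.61 for Nup62 at high-fat ZT4 (10.34 to 10.36), at 9.70 for Ranbp9 at high-fat ZT20 (9.17 to 9.24) and at 6.47 for Xpo5 at high-fat ZT0 (6.2 to 6.23). The lowest mice were at 8.41 for Ipo9 at high-fat ZT12 (8.57 to 8.58), at 7.67 for Kpna6 at control ZT20 (8.08 to 8.15), at 7.39 for Kpna6 at high-fat ZT0 (7.53 to 7.54), at 7.70 for Nup153 at high-fat ZT8 (7.90 to 7.93), at 9.82 for Tnpo1 at control ZT16 (9.97 to 10.00) and at 9.01 for Xpo6 at control ZT12 (9.27 to 9.30).

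The diet difference changed with time of day (limma interaction) for Kpna6 (adjusted p = 0.000771), Xpo1 (0.00146), Nup62 (0.00748), Tnpo1 (0.00792), Kpnb1 (0.0156), Nup50 (0.0161), Nup160 (0.0191), Ranbp9 (0.037), Xpo6 (0.0423) and Nup153 (0.0431). The 24 h rhythm differed between diets for Xpo1 (adjusted p = 0.00516) and Kpna6 (0.0336).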

How the results depend on the processing

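The members passed 44 tests in all. Of these calls 23 held in each of the 47 fits that left out 1 mouse, 14 under every alternative run for them and 12 under both. No call on average or at a single time changed direction, and direction was not scored for interaction and rhythm calls. The 12 that held under both were Kpna2 on average and at ZT0, Kpna6 at ZT0 and in the interaction, Xpo1 at ZT8, Kpnb1 and Tnpo1 at ZT16, Nup160 in the interaction, the rhythms of Nup210 on both diets, and those of Ipo5 and Nup153 on the high-fat diet. Separate fits of each probe set were not among these alternatives. In them, second probe sets of Xpo1 at ZT8 (adjusted p = 0.3) and of Nup153 for the high-fat rhythm (adjusted p = 0.655) did not pass. For Kpnb1, Tnpo1 and Ipo5, some other probe sets passed and some did not. Numbers of passing members that moved by over 1.5 times were, without the filter, 0 at ZT12 (57 of 17097 genes). With genes under the 60th percentile left out, they were 1 at ZT8 and 1 at ZT20 (156 and 91 of 6839 genes). With all probe sets of a gene averaged they were 0 at ZT4, 0 at ZT12 and 0 for the rhythm difference (27, 101 and 148 of 10258 genes). Array weights gave 0 at ZT4, 5 at ZT8 and 11 at ZT16. Over all genes they gave 11, 775 and 2678, against 32, 183 and 1360 in the main fits. The collection day as a random block left 2 rhythmic members in control mice and 3 in high-fat mice (289 and 580 of all genes). For the rhythm difference, a contrast over the 12 group means gave 4 and a fit without the time factor 1 (482 and 22 of all genes). Without the ZT16 mice, the interaction was passed by 4 and the rhythm difference by 1 (271 and 15 of all genes). The causes were not tested. Leaving out 1 mouse gave 3 to 6 members on average, 2 to 4 at ZT0, 0 to 1 at ZT4, 1 to 3 at ZT8, 0 to 2 at ZT12, 2 to 8 at ZT16, 0 to 1 at ZT20, 8 to 11 for the interaction, 3 to 5 for control rhythms, 6 to 11 for high-fat rhythms, and 1 to 3 for the rhythm difference. At ZT20 the number was 1 without control ZT16 replicate 2 or 3, high-fat ZT20 replicate 4 or high-fat ZT8 replicate 2 (85, 92, 67 and 82 of all genes). For the rhythm difference it was 1 without control ZT8 replicate 1 or high-fat ZT16 replicate 3 (166 and 59 of all genes). Same-numbered control and high-fat mice of a time shared little deviation from their group means: 23 such pairs correlated at -0.193 to 0.114, 1 of them over 0.1. Whether replicate numbers denote a pairing cannot be told from these correlations. With the replicate number as a block, 0 members passed at ZT12, 4 at ZT16, 3 on average, 8 in the interaction and 2 in the rhythm difference. Of all genes, 56, 1170, 1043, 977 and 105 passed these in turn. Nup160, Tnpo2 and Nup37 had the lowest means of the members tested, next to the filter on low values.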

Other observations

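Beyond the named members, Nup210l, a paralogue of Nup210, had every high-fat mouse below every control mouse at ZT0 (-0.58 ± 0.19, adjusted p = 0.0734) and at ZT20 (-0.70 ± 0.19, adjusted p = 0.0623) without passing limma's threshold at either time. Ranbp2, a cytoplasmic filament nucleoporin that lay below the filter and was not tested, had all high-fat mice below at ZT0 (a difference of -0.58) and at ZT8 (-0.46). Both were chosen after their values were seen.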
